A study of Arabidopsis thaliana with 30 samples.

Results

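The plastid genes of Arabidopsis thaliana were followed through shoot RNA of 10 groups of plants. They are the loci whose identifier begins with ATCG, and a locus was kept where it had at least 10 reads summed over the 30 libraries. This gave 116 loci out of 133 plastid entries and out of 32679 entries that name a gene or the VP16 sequence. Of the 17 loci left out, 3 had no read, and the values on both sides of the limit were 10 reads just inside and 9 reads just outside. The rule uses the identifier and the summed reads and no difference between groups, but earlier results of these data were known when it was set.

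The 30 libraries were 3 per group, lettered A, B and C, from shoots kept in RNA Later. The labels give genotype EAR to the lines EAR-13-068, EAR-15-025 and EAR-15-053 and to the backgrounds EAR pool 13 and EAR pool 15. Genotype VP16 is given to the lines VP16-02-003 and VP16-05-014 and to the backgrounds VP16 pool 2 and VP16 pool 5. Col-0, the common laboratory accession, was the group with no such construct in its label. In this approach, called genome interrogation, plants express artificial zinc-finger transcription factors carrying either the EAR motif, a plant repression motif, or VP16, a viral activation domain. Each named line is 1 line, and the first number of its name was taken as that of its pool. The promoter of the construct, the plants' age, what the pools hold and whether A, B and C were separate plants or cultures are not given in the sources used here, so p-values measure the spread between these libraries, which may be technical.

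Chloroplasts keep a small genome that encodes core subunits of the photosystems, the cytochrome complex, the ATP synthase and the NADH dehydrogenase-like complex, the large subunit of Rubisco, part of the plastid ribosome with its rRNAs and tRNAs, and the core of an RNA polymerase. That plastid-encoded polymerase (PEP) works with sigma factors and associated proteins made in the nucleus, and a separate phage-type polymerase is wholly nuclear-encoded. The transcripts are then cut, spliced, edited and protected by nuclear-encoded RNA-binding proteins. Most mature plastid RNAs carry no long poly(A) tail, and library protocols differ in how much of such RNA they recover. Whether poly(A) selection was used is not given in the sources used here.

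Between 10076308 and 40780331 reads per library lay on genes. Green leaf markers were abundant in every library, summing to 61556 to 83342 counts per 1000000 gene reads (CPM) over 7 genes, as for shoot tissue. Summed CPM of the other marker lists was 55.0 to 108 for 7 root genes, 5.08 to 10.7 for 4 shoot meristem genes and 0.308 to 1.96 for 6 flower genes. Setting each library against the others of its group by a chi-square over genes outside the organelles, 4 libraries stood apart, namely VP16 pool 2 C, VP16-05-014 C, EAR-15-053 C and EAR-15-025 A, and counts of plastid loci that passed the test are given below with and without them. As these are bulk samples, fewer cells of a type and less RNA per cell cannot be told apart.

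Plastid loci took a small and very uneven share of the reads. Their share of gene reads was 0.084% in the lowest library, EAR pool 13 C, had a median of 0.172%, and was 1.287% in the highest, VP16-05-014 B, a 15.3-fold range. Exact 95% binomial intervals, which cover counting error only, were 0.0830 to 0.0851% and 1.28 to 1.29% for those 2 libraries, which are narrow beside the range between libraries.

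The EAR lines had low shares with moderate spread. EAR-13-068 had 0.140, 0.172 and 0.129% in libraries A, B and C, against 0.130, 0.112 and 0.084% in EAR pool 13. EAR-15-025 had 0.169, 0.0853 and 0.188% and EAR-15-053 had 0.171, 0.125 and 0.174%, against 0.169, 0.358 and 0.158% in EAR pool 15. In each of these comparisons the line overlapped its pool, and 1 library of EAR pool 15, B, was above all libraries of both of its lines.

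Among the VP16 groups and Col-0, the highest library exceeded the lowest of its group 8.76-fold in VP16-05-014, 2.93-fold in VP16 pool 2 and 3.53-fold in Col-0, against 1.81-fold in VP16-02-003 and 1.75-fold in VP16 pool 5. In the EAR groups this ratio was at most 2.27-fold, in EAR pool 15. VP16-02-003 had 0.222, 0.247 and 0.403% in A, B and C, against 0.132, 0.131 and 0.382% in VP16 pool 2. VP16-05-014 had 0.564, 1.287 and 0.147%, against 0.130, 0.187 and 0.227% in VP16 pool 5. Col-0 had 0.643, 0.568 and 0.182%. In VP16-05-014 all 3 libraries lay far apart, and C was lower than 2 of the 3 pool 5 libraries. Single libraries stood far from the rest of their group in VP16 pool 2, where C was high, and in Col-0, where C was low.

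VP16-05-014 averaged 0.666 ± 0.577% and VP16 pool 5 averaged 0.181 ± 0.0488% (SD, n = 3 each), a ratio of means of 3.68. The difference in means was 0.485 percentage points. Leaving out 1 library moved this difference to between 0.175, without VP16-05-014 B, and 0.745. EAR pool 13 averaged 0.109 ± 0.0232% and Col-0 averaged 0.464 ± 0.247%, a ratio of 0.234, and this was the pair of compared groups whose shares did not overlap. The other 3 pools had ratios to Col-0 of 0.491 for EAR pool 15, 0.463 for VP16 pool 2 and 0.390 for VP16 pool 5, each with overlapping libraries. As sums over the chosen loci, these shares are descriptions and carry no test.

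**Figure D1:**
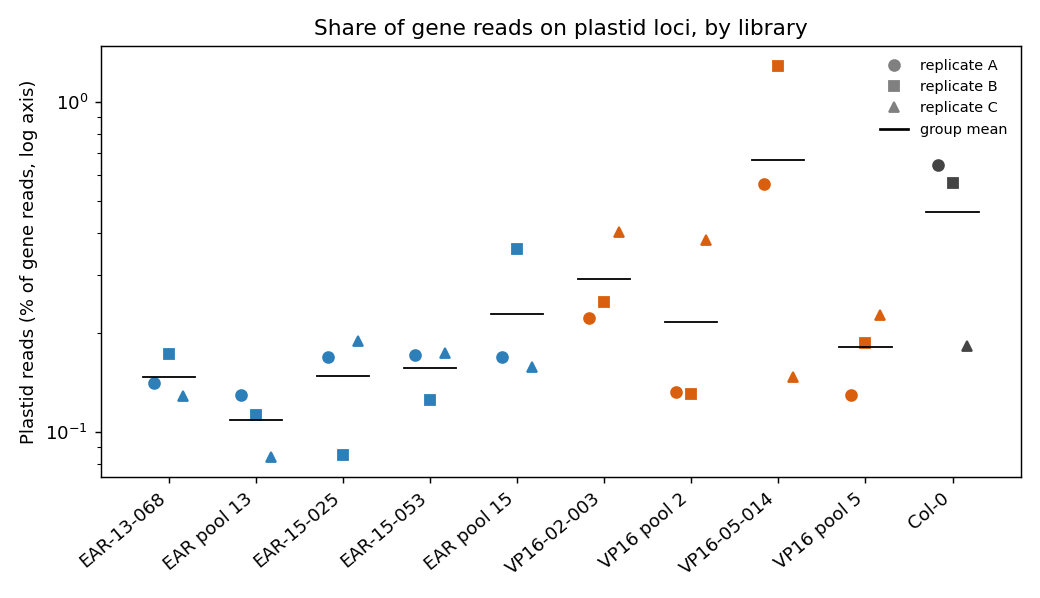
Plastid reads as a percent of gene reads (log axis) in each of 30 libraries, with each line left of its pool and Col-0 last; symbols give the replicate letter and bars the group mean. Shares span 0.084 to 1.287%. Within VP16 pool 2 and Col-0 a single library lies far from the other 2, and within VP16-05-014 the libraries all lie far apart.

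Other classes of reads that come from outside the usual nuclear mRNAs moved with the plastid share. The 5 libraries highest in plastid share, VP16-05-014 B, Col-0 A, Col-0 B, VP16-05-014 A and VP16-02-003 C, were also the 5 highest in the share of mitochondrial loci and the 5 highest in reads that fell on no feature, and 4 of them were among the 5 highest in nuclear rRNA entries. Mitochondrial loci took 0.00336 to 0.0283% of gene reads, an 8.42-fold range. The nuclear rRNA entries, 4 in all, summed to 459 to 10120 CPM, a 22.1-fold range, and reads on no feature made up 0.765 to 1.94% of all counted entries.

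Of the 5 libraries highest in plastid share, 3 were among the 5 with the fewest gene reads and 1 was among the 5 with the most. The green leaf markers spanned 1.35-fold, and VP16-05-014 B, with the highest plastid share, had 77063 CPM of them, against 69659 to 79431 CPM in the 3 Col-0 libraries. The part of these read classes and of depth in the differences between groups was not tested.

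**Figure D2:**
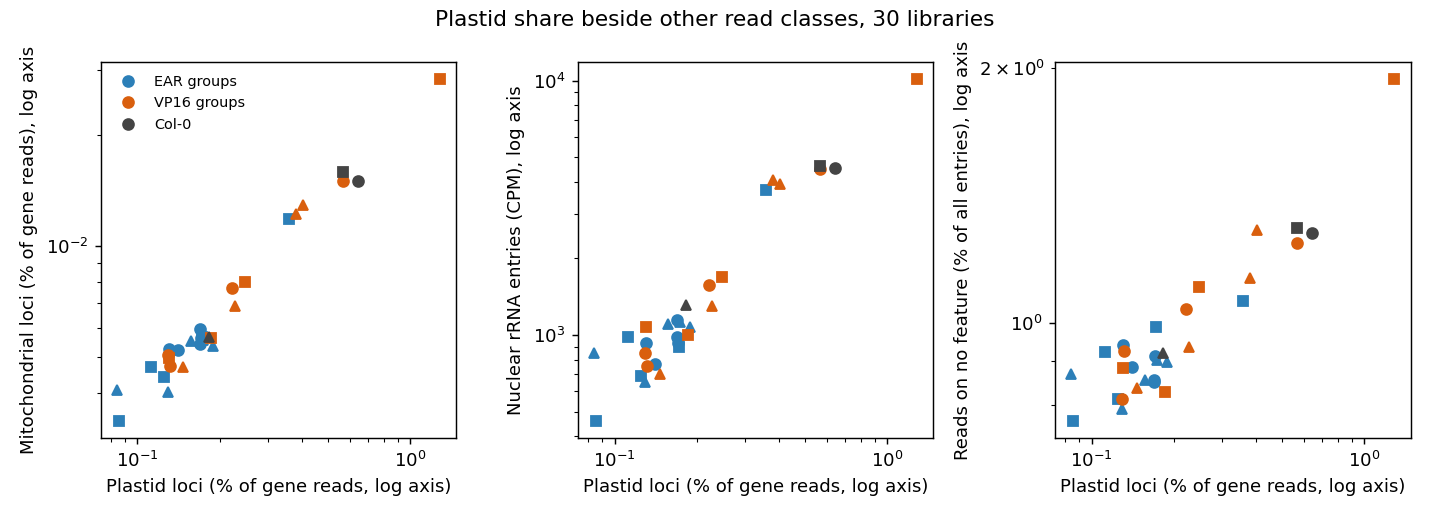
Plastid share of gene reads (x, log axis) against the mitochondrial share, the summed CPM of 4 nuclear rRNA entries and the share of reads on no feature (y, log axes); each point is 1 of 30 libraries, coloured by EAR groups, VP16 groups and Col-0, with symbols for the replicate letter. The library with the highest plastid share, 1.287%, also has the highest value on each y axis.

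Among the 116 loci, 4 carried most of the plastid reads. Their mean levels over the 30 libraries were 719, 718, 356 and 355 CPM, and the fifth locus averaged 65.4 CPM. In all 12 loci fell between 10 and 100 CPM, 39 between 1 and 10 CPM and 61 under 1 CPM. Together the 4 took 68.1 to 89.8% of plastid reads. They formed 2 pairs of nearly equal counts, 417596 and 417053 reads for the first pair and 207587 and 206815 reads for the second, with ratios per library of 0.967 to 1.02 and 0.945 to 1.06.

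Arabidopsis plastid DNA holds a large inverted repeat, and genes inside it exist as a pair of copies. RefSeq lists 11 plastid gene symbols at 2 places each among 129 plastid entries, of which 85 are protein-coding, 37 are tRNA genes and 7 are rRNA genes. The files give no read as aligned to more than 1 place, and how reads matching both copies were counted is not given in the sources used here, so the level of a single copy is uncertain. RefSeq's plastid entries carry other identifiers than the ATCG ones and could be matched to none of the 116 loci. Loci are therefore described by identifier, by abundance and, for 6 of them, by the name that notes in the reference annotation give.

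As a sum, the 4 leading loci varied more between libraries than the other 112 did. The summed level of the 4 was 572 CPM in EAR pool 13 C and 11552 CPM in VP16-05-014 B, a 20.2-fold range, whereas the other 112 loci summed to 258 CPM in the lowest library and 1318 CPM in the highest, a 5.11-fold range. Single loci among the 112 varied as widely as the leading ones, which ranged 19.5-fold to 20.9-fold, and the fifth locus ranged 21.3-fold. VP16-05-014 had 4900, 11552 and 1119 CPM on the 4 loci in A, B and C, against 979, 1421 and 1831 CPM in VP16 pool 5. Without the 4 loci the ratio of mean shares was 2.01 for VP16-05-014 over VP16 pool 5 and 0.390 for EAR pool 13 over Col-0, in place of 3.68 and 0.234.

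At the other end stood ATCG00190, the ninth most abundant locus, whose function the annotation used here does not give. It ranged over 15.7 to 27.7 CPM with a median of 21.5 CPM, a 1.77-fold spread, the smallest among the 24 loci averaging at least 5 CPM. It was not alone, since 7 of those 24 loci ranged under 3-fold, and the next lowest, ATCG00480, ranged 1.98-fold. Over those 24 loci the highest library exceeded the lowest by a median of 6.22-fold and by up to 21.3-fold. As a share of plastid reads, ATCG00190 therefore ran over 0.178 to 2.59%, with its lowest share in a library rich in the leading loci.

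**Figure D3:**
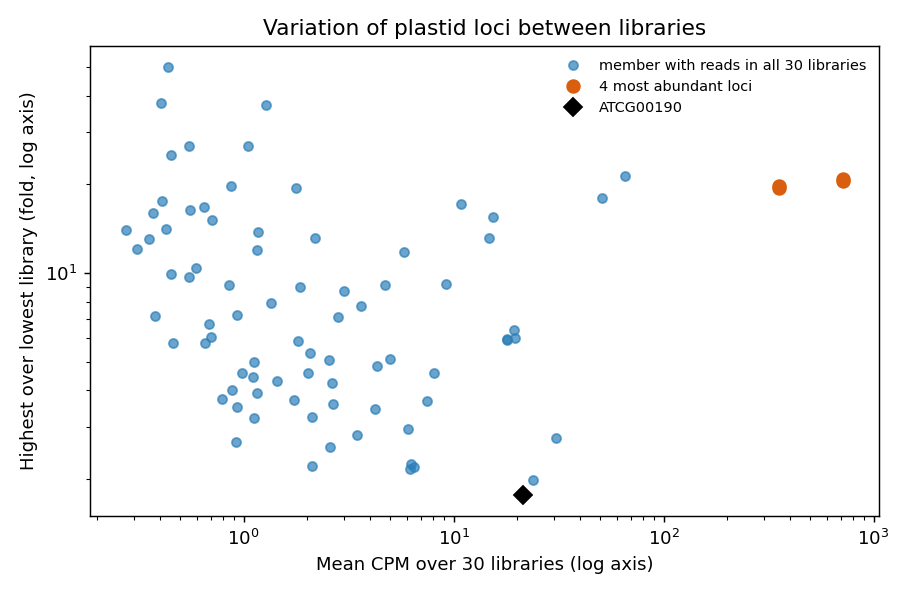
Highest over lowest library (fold, log axis) against mean CPM over 30 libraries (log axis) for the 84 plastid loci with a read in every library. The 4 most abundant loci, whose points coincide within each pair, lie near a 20-fold range and ATCG00190 at 1.77-fold; at low CPM counting error widens the range.

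**Figure D4:**
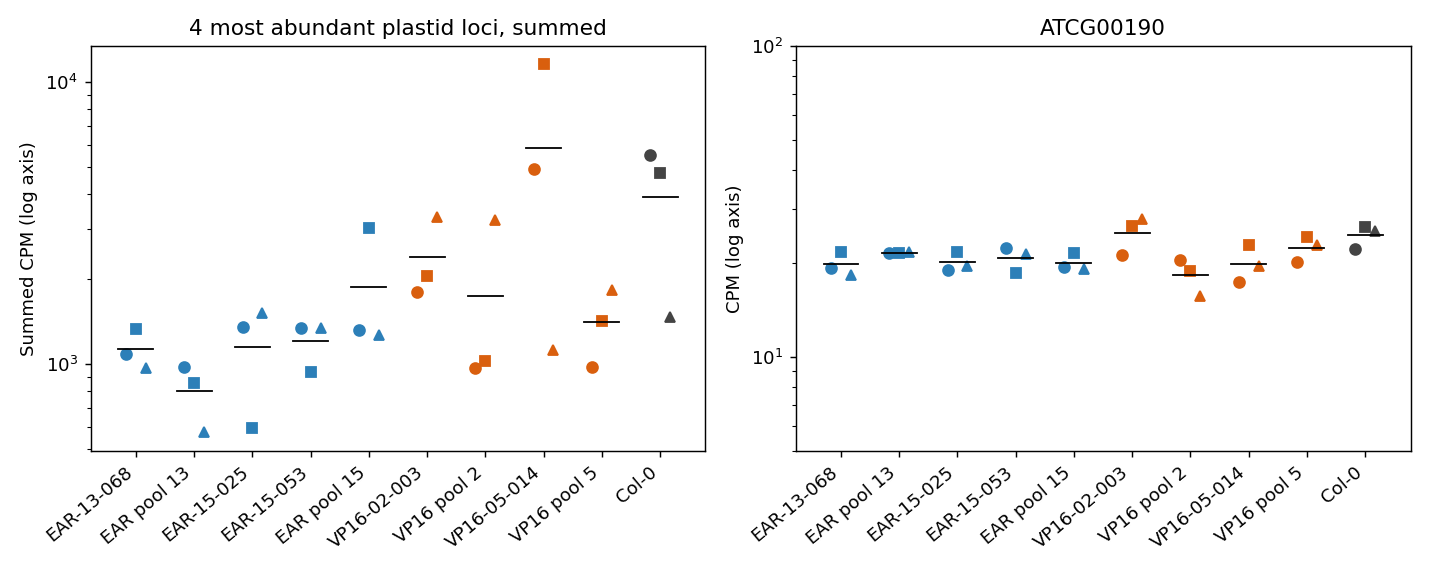
CPM (log axes) by library in the 10 groups: left, the 4 most abundant plastid loci summed; right, ATCG00190; bars are group means and symbols the replicate letter. The sum runs over 572 to 11552 CPM and ATCG00190 over 15.7 to 27.7 CPM.

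The 6 loci named in the annotation carry the names of ribosomal proteins, a protease subunit, an envelope protein and a photosystem II protein. These names were taken as given and not checked. For photosystem II reaction center protein G no RefSeq gene was matched, so what ATCG00430 encodes is uncertain. ATCG01310, ribosomal protein L2 of the large subunit, ranged over 4.45 to 9.63 CPM with its lowest value in VP16 pool 2 B and its highest in Col-0 B. ATCG00660, ribosomal protein L20, was near the counting limit with 177 reads in all and at most 0.832 CPM. ATCG00750, ribosomal protein S11 of the small subunit, ranged over 0.401 to 1.83 CPM, highest in VP16-05-014 B.

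ATCG00670, the plastid-encoded proteolytic subunit of the Clp protease, ranged over 2.61 to 8.98 CPM, and ATCG00530, a CemA-like envelope protein related to proton extrusion, over 1.2 to 6.05 CPM. ATCG00430, annotated as photosystem II reaction center protein G, ranged over 0.477 to 2.38 CPM. The highest library was Col-0 B for 3 of the 6 loci and VP16-05-014 B for the other 3. Per kilobase of coding length, where RefSeq gives a gene of that name, the median level was 6.88 CPM for ribosomal protein L2, 6.09 for ClpP, 3.15 for CemA, 2.18 for ribosomal protein S11 and 0.598 for ribosomal protein L20. ATCG01310 had 3870 reads and ATCG00830 had 3914, with ratios per library of 0.782 to 1.25. The value for ribosomal protein L2 may therefore be that of 1 copy of a pair, and its rank beside the other loci is uncertain.

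Differences between groups were tested for each locus with edgeR's quasi-likelihood test over all 30 libraries, with p-values adjusted by Benjamini-Hochberg over all 19566 genes that passed the filter on low counts, and a locus is called where the adjusted p is under 0.05. The filter passed 91 of the 116 plastid loci. The 25 that did not pass held 1280 of 1528320 plastid reads (0.0838%). With any 1 group left out of the filter, 90 or 91 loci passed. Log2 fold changes below are the first group over the second.

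EAR-13-068 against EAR pool 13 gave no called plastid locus among the 91, where 0.123% of all genes were called higher and 0.118% lower. The median log2 fold change was 0.22, with 5 loci at an unadjusted p under 0.05, where 10.8% of all genes were, and DESeq2 called 0. EAR-15-025 against EAR pool 15 gave 0 called loci by edgeR and a median of -0.18, where 0.046% of all genes were called higher and 0.0102% lower. There 2 loci had an unadjusted p under 0.05, where 8.75% of all genes did, and DESeq2 gave an adjusted p to 5 loci and called 0 of them, so that its count says little here. EAR-15-053 against EAR pool 15 gave 0 called by edgeR and a median of -0.17, where 0% of all genes were called higher and 0.00511% lower. No locus had an unadjusted p under 0.05, where 5.74% of all genes did, and DESeq2 called 0 of the 28 loci to which it gave an adjusted p.

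The sister lines EAR-15-025 and EAR-15-053, set against each other, gave 0 called by both tools and 2 at an unadjusted p under 0.05, where 9.61% of all genes were, with a median of -0.05. Here 0.00511% of all genes were higher by the same rule and 0.0102% lower. Over all genes tested the median log2 fold change lay between -0.02 and 0.01 in these and the other comparisons.

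In VP16-02-003 against VP16 pool 2, 3 plastid loci were higher and 0 lower, where 15% of all genes tested were called higher and 13.7% lower. The 3 are 3.30% of the loci tested, a smaller share than over all genes. The median over the 91 loci was 0.33 and 7 had an unadjusted p under 0.05, where 40.7% of all genes did. DESeq2 called 2 higher, where it called 13.8% of all genes.

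ATCG00190 had 21.3, 26.4 and 27.7 CPM in VP16-02-003 A, B and C, against 20.5, 18.9 and 15.7 CPM in VP16 pool 2. Every line library lay above every pool library, as was the case for 26.4% of all genes tested. The log2 fold change was 0.40 ± 0.11 (SE, edgeR adjusted p = 0.00858), and the call was lost in 2 of 6 fits that left out a library, with edgeR adjusted p-values of 0.0644 without VP16-02-003 C and 0.0563 without VP16 pool 2 C.

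ATCG00740, whose function the annotation used here does not give either, had 1.56, 2.25 and 3.99 CPM in VP16-02-003, against 1.68, 1.27 and 1.08 CPM in VP16 pool 2. VP16-02-003 A lay within the pool's range. The log2 fold change was 0.90 ± 0.27 (SE, edgeR adjusted p = 0.0140), and it was 0.44 with an edgeR adjusted p of 0.238 without VP16-02-003 C, the library with the highest plastid share of its group. The call was also lost without VP16 pool 2 B and without VP16 pool 2 C, at edgeR adjusted p-values of 0.0563 and 0.0517. Without VP16-02-003 C no plastid locus was called in this comparison, and without the 4 libraries that stood apart, 12 were called higher, where 18.9% of all genes were.

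The 4 leading loci were not called in this comparison. The most abundant locus had 614, 698 and 1089 CPM in VP16-02-003, against 327, 339 and 1035 CPM in VP16 pool 2. The pool's library C lay above 2 of the 3 line libraries.

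VP16-05-014 against VP16 pool 5 gave no called plastid locus in edgeR's test of 91, where 0.552% of all genes were called higher and 0.762% lower, although the median log2 fold change was 0.80 and 34 loci had an unadjusted p under 0.05, where 19.6% of all genes did. The smallest adjusted p by edgeR was 0.0684, and DESeq2 called 5 of 66 loci higher, where it called 2.36% of all genes higher. The most abundant locus had 1623, 3841 and 379 CPM in VP16-05-014 A, B and C, against 344, 480 and 624 CPM in VP16 pool 5. Libraries A and B were above and C was within the pool's range.

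Its log2 fold change was 2.06 ± 0.64 (SE, edgeR adjusted p = 0.0926). Without VP16-05-014 C, 42 loci were called higher, where 13% of all genes were, while the other 5 fits that left out a library called 0. Without the 4 libraries that stood apart, 52 were called higher, where 16.1% of all genes were. VP16-05-014 C had 706 CPM of nuclear rRNA entries, against 4510 CPM in VP16-05-014 A and 10120 CPM in VP16-05-014 B. The difference between both VP16 line effects, tested as an interaction, gave 0 called plastid loci by edgeR, where 0.93% of all genes were called higher and 0.802% lower. There were 2 at an unadjusted p under 0.05, where 13.8% of all genes were, and DESeq2 called 1 lower, where it called 0.983% of all genes.

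**Figure D5:**
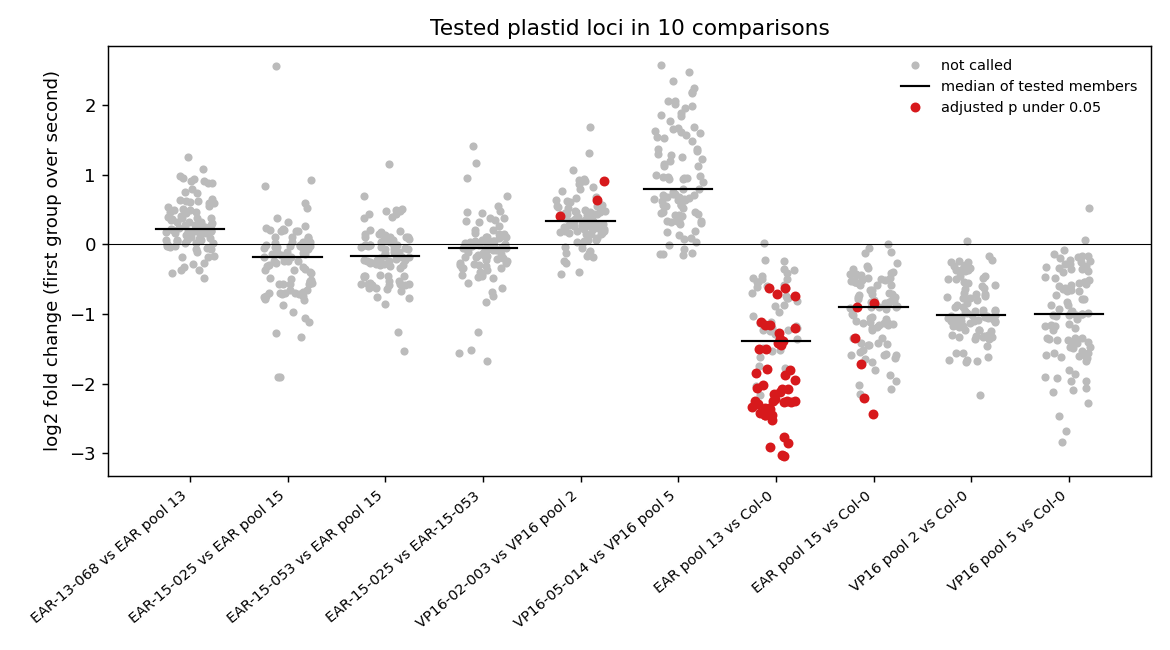
Log2 fold changes (first group over second) of the 91 tested plastid loci in 10 comparisons; red points have an edgeR adjusted p under 0.05, grey points do not, and black bars are medians. The 4 comparisons with Col-0 have medians between -0.90 and -1.39, and called loci number 48 in EAR pool 13 against Col-0, 6 in EAR pool 15 against Col-0 and 3 in VP16-02-003 against VP16 pool 2.

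All 4 pools are set against the same Col-0 libraries, so their comparisons share whatever is particular to those 3 libraries. In EAR pool 13 against Col-0, 48 plastid loci were lower and 0 higher, where 4.35% of all genes were called lower and 4.11% higher. At an unadjusted p under 0.05 there were 77 of the 91, where 23.2% of all genes were. The median log2 fold change over the 91 loci was -1.39, and 56 loci had no overlap between groups with the pool lower, where 10.7% of all genes did. All 4 leading loci were among the 48.

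The most abundant locus had 336, 275 and 184 CPM in EAR pool 13, against 1812, 1603 and 505 CPM in Col-0. The groups did not overlap, and Col-0 C lay closest to the pool. Its log2 fold change was -2.37 ± 0.65 (SE, edgeR adjusted p = 0.0247), and those of the other leading loci lay between -2.34 and -2.35.

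The called loci with the most negative log2 fold changes were sparse ones. ATCG01110 had 0.0800, 0.135 and 0.137 CPM in EAR pool 13, against 1.59, 0.794 and 0.157 CPM in Col-0. Each pool value lay below each Col-0 value, but the gap to Col-0 C rests on 3 reads in that library. The log2 fold change was -3.04 ± 0.88 (SE, edgeR adjusted p = 0.0327), and without Col-0 A it was -1.79 with an edgeR adjusted p of 0.408. The call was lost in 5 of 6 fits that left out a library, all but the one without Col-0 C, with edgeR adjusted p-values of 0.0641 to 0.408.

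ATCG01000 had 0.0800, 0.108 and 0.103 CPM in EAR pool 13, against 0.932, 1.29 and 0.261 CPM in Col-0, on 3, 4 and 3 reads in the pool and 38, 13 and 5 reads in Col-0. The pool was again below every Col-0 library. The log2 fold change was -3.02 ± 0.76 (SE, edgeR adjusted p = 0.0147), and the call was lost in 3 of 6 fits that left out a library, with edgeR adjusted p-values of 0.0856 without Col-0 A, 0.0544 without Col-0 B and 0.0610 without EAR pool 13 A.

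Among the loci with an annotated name, ATCG00530 and ATCG01310 were called. ATCG00530, the CemA-like protein, had 2.56, 1.97 and 1.67 CPM in EAR pool 13, against 4.93, 6.05 and 2.56 CPM in Col-0. EAR pool 13 A and Col-0 C were almost equal, and the log2 fold change was -1.15 ± 0.34 (SE, edgeR adjusted p = 0.0328). ATCG01310, ribosomal protein L2, had 5.47, 5.29 and 4.61 CPM in EAR pool 13, against 8.66, 9.63 and 6.0 CPM in Col-0, with a log2 fold change of -0.71 ± 0.22 (SE, edgeR adjusted p = 0.0440).

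Both calls were lost in 5 of 6 fits that left out a library and passed without Col-0 C. In the 5 fits the edgeR adjusted p-values were 0.0510 to 0.145 for ATCG00530 and 0.0826 to 0.176 for ATCG01310. The remaining named loci were not called. Their log2 fold changes were -0.53 for ATCG00670, -0.89 for ATCG00750, -1.24 for ATCG00430 and -1.51 for ATCG00660, with edgeR adjusted p-values of 0.333, 0.0856, 0.0589 and 0.0787. ATCG00190 had 21.5, 21.6 and 21.7 CPM in EAR pool 13, against 22.3, 26.2 and 25.5 CPM in Col-0, a log2 fold change of -0.24 ± 0.11 (SE, edgeR adjusted p = 0.165).

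The number of called loci depended on single libraries of both groups. It was 4 without Col-0 A, where 3.83% of all genes were called lower, 7 without Col-0 B, where 2.18% were, and 64 without Col-0 C, where 3.42% were. It was 15 without EAR pool 13 A, where 2.32% of all genes were called lower, 13 without EAR pool 13 B, where 2.57% were, and 10 without EAR pool 13 C, where 2.39% were. Without the 4 libraries that stood apart, none of which belongs to these groups, 67 were called lower, where 9.37% of all genes were.

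EAR pool 15 against Col-0 gave 6 called loci, all lower and all among the 48 above, where 3.22% of all genes were called lower and 3.16% higher. The 6 are 6.59% of the loci tested, and the median log2 fold change was -0.90. At an unadjusted p under 0.05 there were 47 loci, where 22.5% of all genes were. The most abundant locus had 437, 1021 and 426 CPM in EAR pool 15, against 1812, 1603 and 505 CPM in Col-0. EAR pool 15 B lay above Col-0 C, and the log2 fold change was -1.12 ± 0.62 (SE, edgeR adjusted p = 0.300). With the replicate letter as a block, 9 loci were called lower, where 3.25% of all genes were. Leaving out 1 library gave 4 called loci without Col-0 A, 1 without Col-0 B and 17 without Col-0 C, where 2.86, 1.79 and 2.39% of all genes were called lower. It gave 1 without EAR pool 15 A, 1 without EAR pool 15 B and 4 without EAR pool 15 C, where 1.87, 1.29 and 2.32% were. Without the 4 libraries that stood apart 29 were called lower, where 8.34% of all genes were.

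Neither VP16 pool differed from Col-0 in a called plastid locus by edgeR. VP16 pool 2 against Col-0 had a median of -1.01, where 0.0153% of all genes were called higher and 0% lower by edgeR. It had 46 loci at an unadjusted p under 0.05, where 10.8% of all genes were, and DESeq2 called 2 of 73 lower, where it called 0.222% of all genes. VP16 pool 5 against Col-0 had a median of -1.0, 50 loci at an unadjusted p under 0.05, where 9.53% of all genes were, and 0 by DESeq2, and 0.00511% of all genes were called higher and 0% lower. Leaving out the 4 libraries that stood apart, 47 loci were called lower in VP16 pool 2, where 5.12% of all genes were, and 12 in VP16 pool 5, where 2.12% were.

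Nuclear genes, most of which serve the plastid genome, were read out of the same fit in 6 lists of 87 genes, all of which passed the filter. The list of phage-type RNA polymerases includes RPOTm, the mitochondrial one. In the EAR line comparisons edgeR called 0 of the 87. At an unadjusted p under 0.05 there were 16 in EAR-13-068 against EAR pool 13 and 44 in EAR-15-025 against EAR pool 15, where 10.8 and 8.75% of all genes were. There were 7 in EAR-15-053 against EAR pool 15 and 23 between EAR-15-025 and EAR-15-053, where 5.74 and 9.61% of all genes were. DESeq2 called 10 of the 77 to which it gave an adjusted p in EAR-15-025 against EAR pool 15 and 0 of 87 in each of the other 3. Of the 10, 8 were nuclear subunits that join plastid-encoded ones and 2 were genes of plastid RNA processing and stability. Over all genes DESeq2 gave an adjusted p to 3160 in that comparison, and called 135 higher and 4 lower. The median log2 fold change there was 0.18 over the 87 and 0.24 over the 35 nuclear subunits, 29 of which had an unadjusted p under 0.05. Of the 7 green leaf markers 6 had such a p, and DESeq2 called 2. Without EAR-15-025 A, which stood apart, the genes with such a p fell from 1713 to 976 over all genes. The edgeR calls there fell from 9 higher and 2 lower to 0 of either.

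In VP16-02-003 against VP16 pool 2, 19 of the 87 nuclear genes were lower and 0 higher, with a list median of -0.11, where 13.7% of all genes were called lower. Of 6 PEP sigma factors, which direct the plastid-encoded polymerase to promoters, 2 were lower, SIG4 at a log2 fold change of -0.38 ± 0.07 (SE, edgeR adjusted p = 0.000457) and SIGA at -0.28 ± 0.08 (SE, edgeR adjusted p = 0.00925). Of 13 PEP-associated proteins, FLN2, a fructokinase-like protein of the complex, was lower at a log2 fold change of -0.77 ± 0.10 (SE, edgeR adjusted p = 1.98e-05) and FSD3, a plastid iron superoxide dismutase, at -0.47 ± 0.11 (SE, edgeR adjusted p = 0.00452).

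Among 20 genes of plastid RNA processing and stability 8 were lower. They included SVR7, a pentatricopeptide repeat protein of the chloroplast, at a log2 fold change of -0.43, PGR3, a protein of the same family needed for plastid transcripts, at -0.39, and emb2746, the plastid ribonuclease J, at -0.38. Among 35 nuclear subunits that join plastid-encoded ones 7 were lower, including NdhM of the NADH dehydrogenase-like complex at -0.55 and the ATP synthase subunits ATPD at -0.51 and ATPC1 at -0.34. None of 10 nuclear-encoded plastid ribosomal proteins and none of 3 phage-type RNA polymerases was called by edgeR or DESeq2, with 1 and 2 of them at an unadjusted p under 0.05. The call of SIGA was lost in 1 of 6 fits that left out a library that of emb2746 in 3 of 6 and that of SVR7 in 5 of 6, while SIG4, FLN2, FSD3, PGR3, NdhM, ATPD and ATPC1 passed in 6 of 6.

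In the same comparison the nuclear rRNA entries AT3G41979 and AT2G01020 were higher by log2 fold changes of 1.34 and 1.3, with edgeR adjusted p-values of 0.0255 and 0.0350. SEP3, a floral MADS factor and the single tested gene of 6 flower markers, was higher by 1.16 (edgeR adjusted p = 0.0417). Of the 6 fits that left out a library, AT3G41979 passed in 2 and both AT2G01020 and SEP3 in 0.

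In VP16-05-014 against VP16 pool 5, 1 of the 87 was called, PTAC12, a PEP-associated protein, at a log2 fold change of -0.32 ± 0.08 (SE, edgeR adjusted p = 0.0424), and it passed in 2 of 6 fits that left out a library. DESeq2 called 3 of the 87, where it called 435 higher and 308 lower of all 18421 genes with an adjusted p. At an unadjusted p under 0.05 there were 18, where 19.6% of all genes were. AT3G41979 and AT2G01020 were higher by log2 fold changes of 2.20 and 2.16, with edgeR adjusted p-values of 0.0210 and 0.0260, and each passed in 1 of 6 such fits. An edgeR fit on only the 6 libraries of this comparison called 0 of 18199 genes, so PTAC12, AT3G41979 and AT2G01020 were not called there.

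Against Col-0, EAR pool 13 had 9 of the 87 lower and 2 higher, where 4.35% of all genes were called lower and 4.11% higher. EAR pool 15 had 13 of the 87 lower and 1 higher, where 3.22% of all genes were called lower and 3.16% higher. SIGE, the sigma factor known for its response to light and stress, was higher in both pools, at log2 fold changes of 1.31 ± 0.17 in EAR pool 13 (SE, edgeR adjusted p = 2.22e-05) and 0.82 ± 0.17 in EAR pool 15 (SE, edgeR adjusted p = 0.00640). Among the PEP-associated proteins 3 of 13 were lower in EAR pool 13 and 5 of 13 in EAR pool 15. PTAC6, a protein needed for transcription by this polymerase, had log2 fold changes of -0.53 and -0.51 and PTAC7 had -0.45 and -0.46 in EAR pool 13 and EAR pool 15. PTAC14 of the same list, at -0.27 in EAR pool 13, passed in 1 of 6 fits that left out a library, and FSD2, another plastid iron superoxide dismutase, at -0.36 in EAR pool 15, passed in 2 of 6. The sigma factor SIG4, at -0.25 in EAR pool 15, also passed in 2 of 6. These pools share the Col-0 libraries.

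Plastid RNA processing and stability had 5 of 20 genes lower in each pool. The ribonuclease J gene emb2746 had a log2 fold change of -0.66 in both. AT2G37220, an RNA-binding protein of the chloroplast ribonucleoprotein family, had -0.43 in both. CP29 of the same family had -0.80 in EAR pool 13 and CP33 had -0.34 in EAR pool 15, which passed in 6 of 6 and 5 of 6 fits that left out a library. SIGE, PTAC6, PTAC7, emb2746 and AT2G37220 passed in each of the 6 fits that left out a library, in both pools. Among the nuclear partner subunits NPQ4, the photosystem II protein that triggers heat dissipation, was higher at a log2 fold change of 0.28 and PSBQ-2, of the oxygen-evolving complex, lower at -0.35 in EAR pool 13, and these passed in 1 and 2 of 6 such fits. Of 10 nuclear-encoded plastid ribosomal proteins PRPS20 and GHS1 were lower in EAR pool 15, at -0.31 each, and passed in 0 and 1 of 6 such fits. In VP16 pool 2 and VP16 pool 5 against Col-0 edgeR and DESeq2 called 0 of the 87, with 6 and 5 at an unadjusted p under 0.05, where 10.8 and 9.53% of all genes were.

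Mitochondrial loci were called in 1 of the 10 comparisons. Of 17 tested mitochondrial loci 3 were lower in EAR pool 13 against Col-0, with a median log2 fold change of -1.3, where 4.35% of all genes were called lower. The 4 nuclear rRNA entries had a median of -1.56 there, with 0 called by edgeR, 2 by DESeq2 and 4 at an unadjusted p under 0.05. Of all 19948 genes with an adjusted p, DESeq2 called 919 higher and 1070 lower there. Of all genes 23.2% had an unadjusted p under 0.05. In VP16-05-014 against VP16 pool 5 the median was 0.92 for mitochondrial loci, with 0 of 17 called by edgeR, 1 of 9 by DESeq2 and 7 of 17 at an unadjusted p under 0.05, and 2.26 for nuclear rRNA entries. Of all 18421 genes with an adjusted p, DESeq2 called 435 higher and 308 lower there, and 19.6% of all genes had an unadjusted p under 0.05. In VP16-02-003 against VP16 pool 2 and in EAR pool 15 against Col-0, where plastid loci were called, neither edgeR nor DESeq2 called a mitochondrial locus, with 2 and 0 of 17 at an unadjusted p under 0.05. Neither edgeR nor DESeq2 called any of the 7 green leaf markers in these 2 comparisons, with 1 of them at an unadjusted p under 0.05 in each.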

How the data were processed

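RNA from 30 shoot libraries was analysed, 3 in each of 10 groups, from total RNA prepared with a standard Illumina protocol, per the labels. The deposited values are raw counts of reads per gene, 1 table a library, with no normalization by the authors. TopHat2 2.0.5, HTSeq and the TAIR10 build are named in the submitters' processing notes, with no role or order. Counting mode, strand and annotation release are not given in the sources used here. The 5 entries that name no gene, 2.14 to 3.31% of all counted reads, entered neither library sizes nor tests.

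Plastid loci were summed per library as a share of gene reads and as counts per 1000000 gene reads (CPM). Exact 95% binomial intervals cover counting error only. Tests used edgeR 4.0.16 in R 4.3.3 (TMM scaling, filterByExpr with a minimum count of 10, robust quasi-likelihood fit over 10 groups) with adjusted p under 0.05 over all genes. DESeq2 1.42.0, 2 other scalings, no filter, fits on the 6 libraries of a comparison, the replicate letter as a block and leaving out each library were alternatives. The edgeR test was checked on simulated counts drawn with the common dispersion of these libraries. Every gene had that same spread there, so the check does not cover loci that vary more. Among these are the 4 leading plastid loci, whose sum ranged 10.3-fold within VP16-05-014.

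Samples with the same letter deviated together, at correlations over 0.1 in every pair, for EAR pool 15 against Col-0 alone (0.36, 0.26 and 0.15). VP16 pool 5 against Col-0 came close to that limit, at 0.09, 0.14 and 0.14. Whether the letters pair samples cannot be told from this, since the labels do not say what a letter marks. The main tests did not pair them. The 116 loci, the nuclear gene lists and the tests were chosen with earlier results of these data known. Genes are named where called, the largest changes first in each direction and list. A part of that rule that needs gene functions could not be applied, since the annotation used here names 6 of the 116 loci. At most 2 unnamed loci are given for each direction. Named nuclear genes carry RefSeq symbols (TAIR10.1), and the roles given to genes are background.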

Additional observations from a re-analysis of the deposited data

How the results depend on the processing

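Counts of called plastid loci depended on single libraries. Leaving out each library in turn gave 0 to 4 called loci in VP16-02-003 against VP16 pool 2 (0 without VP16-02-003 C), 0 to 42 in VP16-05-014 against VP16 pool 5 (42 without VP16-05-014 C, 0 in the other 5 fits), 4 to 64 in EAR pool 13 against Col-0, 1 to 17 in EAR pool 15 against Col-0, 0 to 1 in VP16 pool 2 against Col-0 (1 without Col-0 A) and 0 to 1 in the interaction of the VP16 line effects. Of all genes, these fits called 1772 to 2473 higher and 1724 to 2562 lower in VP16-02-003 against VP16 pool 2. In the interaction they called 69 to 448 higher and 74 to 200 lower. Without Col-0 A, 47 of all 19745 genes were higher and 36 lower in VP16 pool 2 against Col-0. With 1 library left out an arm has 2 libraries, and the pooled spread is assumed to hold for it. Leaving out the 4 libraries that stood apart, an alternative chosen after seeing the data, gave 12 in VP16-02-003 against VP16 pool 2, 52 in VP16-05-014 against VP16 pool 5, 29 in EAR pool 15, 47 in VP16 pool 2 and 12 in VP16 pool 5, each pool against Col-0. DESeq2 gave 5 in VP16-05-014 against VP16 pool 5, 13 in EAR pool 15 and 2 in VP16 pool 2, each pool against Col-0, and 1 in the interaction. In EAR pool 15 against Col-0 it called 788 higher and 854 lower of all 19948 genes with an adjusted p. Library size alone in place of TMM gave 5 in VP16-02-003 against VP16 pool 2, where 3608 of all 19566 genes were called higher and 1993 lower. The cause was not tested.

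With the replicate block, 4 loci were called in VP16-02-003 against VP16 pool 2 in place of 3, 43 in EAR pool 13 in place of 48 and 9 in EAR pool 15 in place of 6, both against Col-0, and 0 where 0 were called without it. Of all 19566 genes, 2850 were called higher and 2654 lower in VP16-02-003 against VP16 pool 2 with this block. The numbers were 820 and 832 in EAR pool 13 and 594 and 636 in EAR pool 15, both against Col-0. The median log2 fold change of the plastid loci kept its sign under all 4 scalings, but leaving out 1 library reversed it in 3 comparisons. It was -0.01 without VP16-02-003 C in VP16-02-003 against VP16 pool 2, 0.05 without EAR pool 15 B in EAR-15-053 against EAR pool 15, and 0.05 without EAR-15-025 B and 0.03 without EAR-15-053 C in EAR-15-025 against EAR-15-053, where it was 0.005 without the 4 libraries that stood apart. Leaving out 1 library moved the difference in mean plastid share by over 1.5 times in 7 of 10 comparisons. For EAR-15-053 minus EAR pool 15 it was -0.0718 percentage points, and -0.00699 without EAR pool 15 B, and EAR-15-025 minus EAR-15-053 changed sign, at 0.0221 without EAR-15-025 B. The version with protein-coding loci only was not run, since the loci could not be matched to gene types. Depth limits the sparse loci, 61 of which averaged under 1 CPM.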
